A study of Mus musculus with 23 samples.

Results

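The genes described here are 45 G-protein coupled receptors of the fetal mouse heart, out of 23453 genes in the deposited count table. They were chosen by symbol, as receptors for amines (12 genes), peptides (8), adenosine and nucleotides (6), lysophospholipids (6), prostanoids (6), proteases (4) and chemokines (2), and 1 adhesion receptor. All 45 were in the table, 35 passed the filter on low counts and were tested, and 10 were too low to be tested. RNA came from whole C57BL/6 hearts at embryonic day 13.5, as 23 libraries in 3 groups. The 8 wild-type libraries carried wild-type alleles of the receptor kinase genes GRK2, GRK5 and GRK6 and no Cre. The 8 haploinsufficient libraries were labelled GRK2 fl/wt, GRK5 fl/fl and GRK6 KO/KO with Nkx2.5Cre, and the 7 triple-knockout libraries GRK2 fl/fl, GRK5 fl/fl and GRK6 KO/KO with Nkx2.5Cre. Both mutant groups thus share the GRK5 and GRK6 alleles and the Cre and differ, by label, in 1 GRK2 allele. Nkx2.5Cre acts in the cardiac lineage, so floxed alleles stay intact in cells that never expressed it, and wild-type libraries lack the Cre as well as the mutations. The labels number the replicates but do not say whether each is a separate embryo or a pool, and p-values then reflect only how these libraries vary, part of which may be technical.

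G-protein coupled receptors cross the membrane with a bundle of helices and pass a ligand's signal to heterotrimeric G proteins. Those coupled to Gs raise cyclic AMP, those coupled to Gi lower it, those coupled to Gq release calcium, and G12/13 acts on the cytoskeleton. G-protein receptor kinases phosphorylate active receptors, arrestins then bind them, and the signal ends or is redirected. In the developing heart such receptors serve endocardium, vessels, cushion and neural crest cells as well as muscle. The comparisons ask whether the receptor transcripts themselves differ when their kinases are lost.

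The promoters of the 2 receptor genes that the edgeR fit called between genotype groups, Gpr126 and Calcrl, are shown because both transcripts were lower in the haploinsufficient hearts. Gpr126, also named Adgrg6, is an adhesion receptor that binds basement membrane proteins and lies at chr10:14402585-14545036 on the minus strand of mm10. Calcrl, the calcitonin receptor-like receptor, lies at chr2:84330627-84425266 on the minus strand and responds to adrenomedullin when paired with the co-receptor Ramp2. Each sequence is the 250 bases before the RefSeq start site (GRCm38.p6, the same assembly as mm10), written 5′ to 3′ on the gene's strand, with matched motifs in capitals. The windows are chr10:14545037-14545286 for Gpr126 and chr2:84425267-84425516 for Calcrl.
Gpr126: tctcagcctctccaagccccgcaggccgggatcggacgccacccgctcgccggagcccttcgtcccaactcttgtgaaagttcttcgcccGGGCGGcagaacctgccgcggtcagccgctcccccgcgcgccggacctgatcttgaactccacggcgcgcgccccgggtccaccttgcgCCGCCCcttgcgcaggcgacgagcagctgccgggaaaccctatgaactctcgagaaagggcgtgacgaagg
Calcrl: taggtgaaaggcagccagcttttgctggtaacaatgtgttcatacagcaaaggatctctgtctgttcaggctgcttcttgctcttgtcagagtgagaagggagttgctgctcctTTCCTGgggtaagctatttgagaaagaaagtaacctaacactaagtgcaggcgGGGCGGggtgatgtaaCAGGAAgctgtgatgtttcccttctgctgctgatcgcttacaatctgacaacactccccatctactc
Short motifs were searched on both strands. These were CCGGAA, a core of ETS factor sites, and CAGGAA, another such core with the same last letters. The others were AGATAA for GATA factors, TGACGTCA for the cyclic AMP response element, TATAAA for the TATA box and GGGCGG for the GC box. The Calcrl window held CAGGAA 2 times, and GGGCGG 1 time. The Gpr126 window held GGGCGG 2 times, and none of the other motifs. Among 32851 RefSeq promoter windows of the same length, the share with CAGGAA was 25.7% and that with the GC box 32.7%. The other ETS core was in 12%, the GATA motif in 9.99%, the TATA box in 12.4% and the cyclic AMP element in 1.55%. The 2 promoters thus share only the GC box, a motif held by 32.7% of all windows. RefSeq promoters were matched for 35 of the 45 receptors.

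Depth was 3838166 to 14050559 counts per library in the wild type, 1757257 to 11025358 under haploinsufficiency and 6657734 to 13864731 under triple knockout. Cre was near 0 in the wild type (0.332 ± 0.341 CPM, SD, n = 8) and was 17.7 ± 4.90 CPM in the haploinsufficient and 18.5 ± 5.61 CPM in the triple-knockout libraries. Transcript of each kinase gene was summed over all its exon rows, unless exons are named. That of Adrbk1, the gene for GRK2, was 54.3 ± 4.25 CPM in the wild type, against 42.5 ± 12 with haploinsufficiency and 34.4 ± 6.60 with all 3 kinases targeted. Grk5 was 23.9 ± 2.50, 13.3 ± 2.23 and 14.2 ± 3.35 CPM in the same order of groups, and exons 3 to 9 of Grk6 were 14.5 ± 2.58, 0.343 ± 0.315 and 0.0640 ± 0.0891 CPM. Transcript of Nkx2-5, the gene that names the Cre, was 98.3 ± 10.4 CPM in the wild type, 70.2 ± 16.2 with haploinsufficiency and 49.7 ± 12.9 in the triple knockout. The group means thus differ for this transcript too, and its part in the receptor results was not tested. Cardiomyocyte markers (Myh6, Myh7, Tnnt2, Actn2, Nppa) summed to 16061 CPM or more in each library, so all libraries carried heart muscle RNA. Markers of lung, foregut, liver and thymus (12 genes) varied widely. Their score, the mean log2 CPM less the wild-type mean, ran from -1.31 to 1.99 in the wild type, from -0.853 to 3.50 under haploinsufficiency and from -0.197 to 2.92 under triple knockout. It was above 1.5 in 1 wild-type library, in 4 with haploinsufficiency and in 3 triple knockouts, the 8 libraries referred to below as those of high score. The markers did not all rise in these 8 libraries. The liver marker Alb was 18.3 CPM in haploinsufficient replicate 1, but 2.61 and 2.49 in haploinsufficient replicates 7 and 8 and 1.84 in triple-knockout replicate 7. The thymus marker Foxn1 was at 1.39 CPM or less in each library. A high score thus need not mean more liver or thymus RNA.

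Receptor levels in the wild-type heart were dominated by a few genes. Compared per length as RPKM, the protease-activated receptor gene F2r, the main thrombin receptor, stood first at 59.1 ± 6.34 RPKM (SD, n = 8), with libraries from 49.7 to 69.1 and a median of 58.7. The endothelin B receptor gene Ednrb followed at 36.6 ± 6.21 RPKM (28.6 to 45.9), S1pr1, a Gi-coupled receptor for sphingosine 1-phosphate on endothelium, at 30.7 ± 2.38 (26.8 to 34.1) and Cxcr7, an atypical receptor that takes up the chemokine CXCL12, at 27.0 ± 4.23 (20.1 to 32.4). These 4 genes held 56.5% of the RPKM summed over all 45 receptors, and 24 of the 45 reached 1 RPKM or more. Next came S1pr2 at 14.5 ± 2.52 RPKM (9.02 to 17.0), the endothelin A receptor gene Ednra at 11.3 ± 2.71 (6.39 to 15.4), Gpr126 at 10.1 ± 1.65 (7.99 to 13.5) and Calcrl at 8.56 ± 1.36 (6.00 to 10.3). In this order F2r did not overlap Ednrb, and Cxcr7 did not overlap S1pr2, over the 8 libraries, whereas every other pair of neighbours among the 8 overlapped. The order is a description of these libraries and was not tested. By the deposited FPKM, Cxcr7 (30.9) stood above S1pr1 (30.2).

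**Figure D1:**
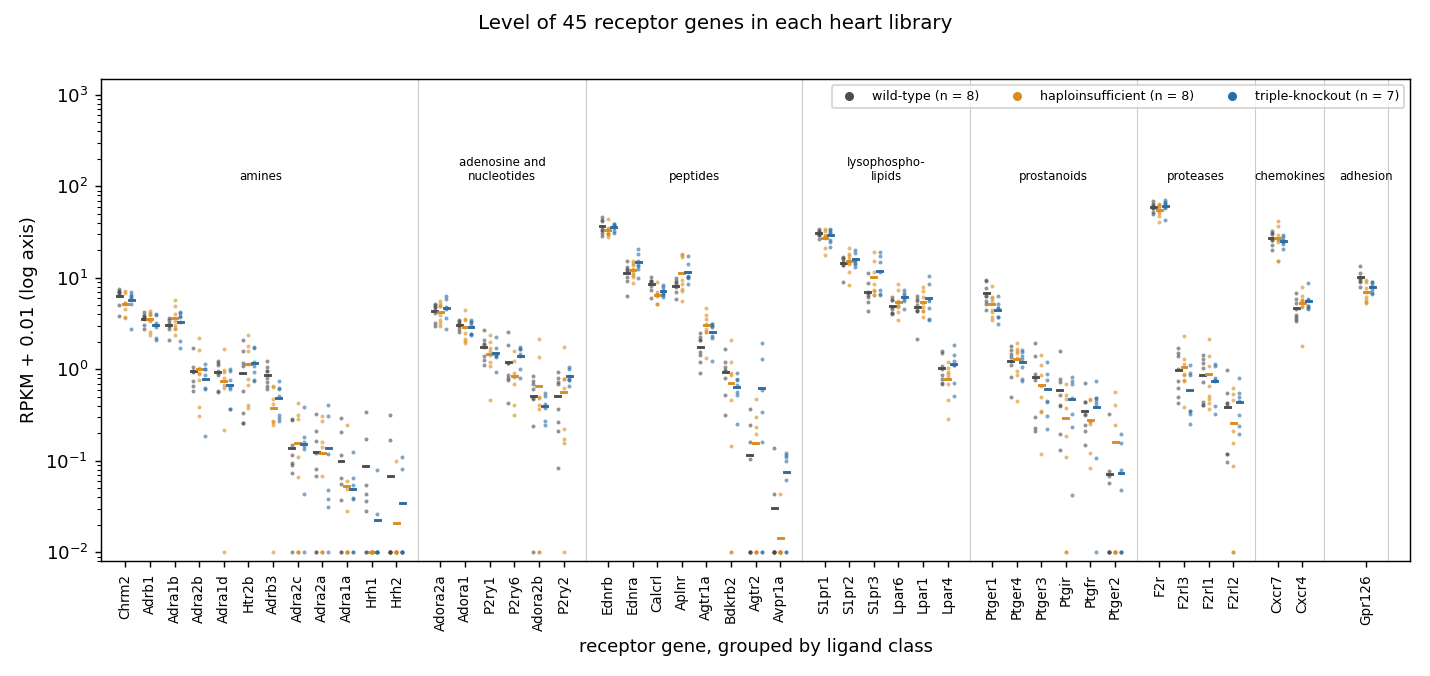
Level of each of the 45 receptor genes in RPKM plus 0.01 on a log axis, grouped by ligand class, with 1 point per library and a bar at the mean of each group (8 wild-type, 8 haploinsufficient, 7 triple-knockout). F2r stands highest at 59.1 RPKM in the wild type, and the groups overlap for all 45 genes.

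By ligand class, peptide receptors made up 24.8% of the summed wild-type RPKM, lysophospholipid receptors 23.1%, protease receptors 22.6%, of which F2r was nearly all, and chemokine receptors 11.6%. The 12 amine receptors, among them the adrenergic and muscarinic receptors that later carry autonomic control of the heart, made up 6.3%. The highest of them were the muscarinic receptor gene Chrm2 at 6.33 ± 1.24 RPKM, whose exons overlap the gene 9330158H04Rik and whose level is therefore uncertain in libraries without strand, and the beta-1 adrenergic receptor gene Adrb1 at 3.59 ± 0.473. The levels of Adora1 and Ptger1 are uncertain for the same reason. By main G protein, the 8 receptors that act through several G proteins with G12/13 held 34.3% of the summed RPKM, 15 Gq receptors 24.4%, 9 Gi receptors 20.2% and 10 Gs receptors 11%. The 10 receptors below the filter (Adra1a, Adra2a, Adra2c, Hrh1, Hrh2, Adora2b, Agtr2, Avpr1a, Ptger2 and F2rl2) had group means between 0 and 0.650 RPKM.

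In the haploinsufficient hearts edgeR called 2 of the 35 tested receptors, both lower, against 2.24% of all 13941 genes tested called and 1.38% called lower. The called share of receptors was 5.71%, a share that rests on 2 genes. DESeq2 and limma on the deposited FPKM called 3, with Adrb3 in addition, and the share of all genes that they called is not given here. The 2 that edgeR called were Gpr126 and Calcrl. They are in the Gs class, as is Adrb3, and that class held 7 of the 35 tested receptors. A link with coupling was not tested. The median difference of the 35 receptors was -0.068 on the log2 scale, beside 0.011 for all genes tested, and 7 of the 35 (20%) had an unadjusted p under 0.05, beside 17.2% of all genes. All the haploinsufficient and triple-knockout comparisons with the wild type share the same 8 control libraries. In whole hearts, fewer cells of a type and less RNA per cell cannot be told apart.

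Gpr126 was 52.0 CPM in the lowest, 64.3 in the median and 87.6 in the highest wild-type library, against 34.6, 42.8 and 60.9 in the haploinsufficient libraries. The ranges overlap, but 6 of the 8 haploinsufficient libraries lie below the lowest wild-type library. The fall was -0.54 ± 0.12 on the log2 scale (SE, 95% interval -0.78 to -0.30, edgeR adjusted p = 0.0102). Mean levels were 65.9 ± 10.7 and 45.4 ± 10.4 CPM (SD, n = 8 each). With the lung, foregut, liver and thymus score as a term in the fit, the estimate was -0.38 (edgeR adjusted p = 0.0908), and without the 8 libraries of high score it was -0.43 (edgeR adjusted p = 0.118).

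Calcrl was 28.4 CPM in the lowest, 43.1 in the median and 48.7 in the highest wild-type library, against 24.3, 30.8 and 42.6 in the haploinsufficient libraries. The 2 ranges overlap through wild-type replicate 6 (28.4 CPM) and haploinsufficient replicate 2 (42.6 CPM), the library of lowest depth (1757257 counts). The other wild-type libraries lay at 34.5 CPM or more and the other haploinsufficient ones at 32.9 CPM or less. Calcrl fell by 0.40 ± 0.10 on the log2 scale (95% interval -0.61 to -0.19, edgeR adjusted p = 0.0332), from 40.5 ± 6.43 to 30.9 ± 5.67 CPM (SD, n = 8 each). Its co-receptor gene Ramp2, which is not one of the 45 receptors, moved the same way: 47.7, 65.4 and 80.2 CPM in the lowest, median and highest wild-type library, against 37.4, 51.6 and 59.8 in the haploinsufficient group, a fall of -0.38 ± 0.10 (edgeR adjusted p = 0.0360). The Calcrl call was lost without any 1 of 8 libraries (wild-type replicates 1, 2, 5, 7 and 8 and haploinsufficient replicates 1, 7 and 8), with edgeR adjusted p from 0.0542 to 0.0864, and the Ramp2 call was lost without any 1 of 10. Leaving out the 8 libraries of high score gave -0.28 for Calcrl (edgeR adjusted p = 0.354) and -0.37 for Ramp2 (edgeR adjusted p = 0.182). In the triple-knockout libraries Calcrl was 29.3 to 39.5 CPM, lower than in the wild type with an unadjusted p under 0.05 (edgeR), but not called. It was not called between the mutant groups either. Its call in only 1 of them is thus not a shown difference between them.

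**Figure D2:**
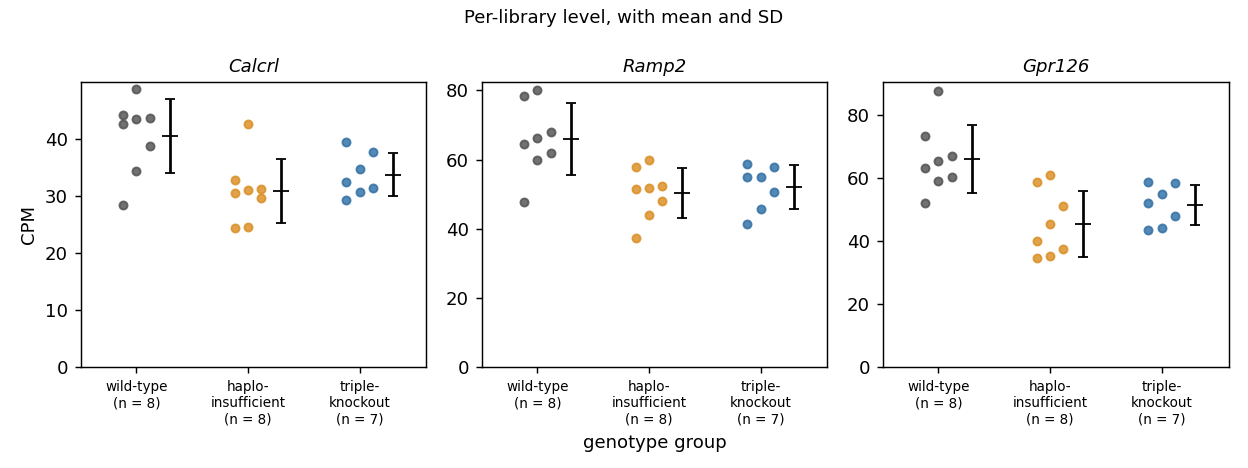
CPM of Calcrl, its co-receptor gene Ramp2 and Gpr126 in each library, by genotype group, with the mean and SD as a bar beside the points. Haploinsufficient means lie below wild-type means for all 3 genes, with overlapping ranges, and the triple-knockout means are 33.7 CPM for Calcrl, 52.1 for Ramp2 and 51.3 for Gpr126.

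Markers of endothelium and endocardium were lower in the same group. Of 6 such markers (Pecam1, Cdh5, Kdr, Tek, Nfatc1 and Npr3), 3 were called lower in the haploinsufficient hearts, beside 1.38% of all genes tested. These were the junction gene Cdh5 by 0.60 ± 0.11, the angiopoietin receptor gene Tek by 0.45 ± 0.09 and the natriuretic peptide receptor gene Npr3 by 0.51 ± 0.10 on the log2 scale (edgeR adjusted p = 0.00390, 0.00505 and 0.00505). In the triple knockout 1 of the 6, again Npr3, was called lower, beside 1.18% of all genes called in either direction. The summed CPM of the 6 was 776 to 1021 (median 929) in the wild type, 654 to 901 (median 682) under haploinsufficiency and 797 to 944 (median 848) under triple knockout, and none of the 6 was at 0. With that marker score as a term, added after the data had been seen, Gpr126 was -0.27 (edgeR adjusted p = 0.758) and Calcrl -0.50 (edgeR adjusted p = 0.274), and no receptor was called. The share of all genes called in that fit is not given here. The part of the marker score in the receptor result was not tested.

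In the triple-knockout hearts 0 of the 35 tested receptors were called against the wild type by edgeR, beside 1.18% of all genes tested, and 8 had an unadjusted p under 0.05 (22.9%, beside 10.8% of all genes), 4 higher (beside 5.24%) and 4 lower (beside 5.54%). DESeq2 also called 0. The median difference of the 35 was -0.031, beside 0.008 for all genes. In 24 of the 35 receptors the 95% interval lay within 1 log2 unit of no change, and in 8 within 0.5. The 5 smallest p-values belonged to Ptger1, S1pr3, Gpr126, Ednra and Adrb3.

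Ptger1, a prostaglandin E2 receptor gene, ranged from 9.29 to 19.5 CPM (median 13.2) in the wild type and from 6.51 to 13.2 (median 9.76) in the triple knockout, with overlap, an estimate of -0.55 ± 0.18 and an edgeR adjusted p of 0.167. S1pr3, a sphingosine 1-phosphate receptor gene, ranged from 19.4 to 50.3 CPM (median 29.9) in the wild type and from 29.4 to 86.2 (median 51.5) in the triple knockout, an estimate of 0.77 ± 0.26 with an edgeR adjusted p of 0.178. Triple-knockout replicates 1, 3 and 7, the 3 of that group with a score above 1.5, were its 3 highest libraries for S1pr3. With the score as a term the S1pr3 estimate was 0.13 and without the 8 libraries of high score it was 0.32. Gpr126 was 43.5 to 58.7 CPM in the triple knockout, with an estimate of -0.34 ± 0.12 and an edgeR adjusted p of 0.219. Ednra, the endothelin receptor gene of neural crest-derived and smooth muscle cells, was 23.3 to 56.1 CPM in the wild type and 35.9 to 74.9 in the triple knockout, an estimate of 0.40 ± 0.15 with an edgeR adjusted p of 0.265. The Ednra estimate was 0.22 with the score as a term and 0.17 without the 8 libraries of high score. It was 0.76 in library IDs 1 to 12 and 0.08 in IDs 19 to 30, a difference of -0.67 ± 0.28 between the sets (edgeR unadjusted p = 0.0248, adjusted p = 0.590).

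Adrb3, the beta-3 adrenergic receptor gene, was low throughout: 1.70 to 3.44 CPM in the wild type, 0 to 1.83 under haploinsufficiency and 0.729 to 2.06 under triple knockout. Its estimates were -1.33 ± 0.40 in the haploinsufficient group (edgeR adjusted p = 0.0752) and -0.91 ± 0.37 in the triple knockout (edgeR adjusted p = 0.320). The first was called by DESeq2 (adjusted p = 0.0286), by limma on log2(FPKM + 0.1) and log2(FPKM + 1) (adjusted p = 0.0444 and 0.0227), and by edgeR without haploinsufficient replicate 5 (adjusted p = 0.0482). With the score as a term it was -0.91 (edgeR adjusted p = 0.342), and the triple-knockout estimate was -0.50. Agtr1a, an angiotensin II receptor gene, ran from 2.05 to 5.70 CPM (median 4.12) in the wild type and from 3.06 to 10.6 (median 6.71) in the haploinsufficient libraries, with an estimate of 0.77 ± 0.25 and an edgeR adjusted p of 0.112. Within library IDs 1 to 12 the Agtr1a estimate was 1.27 and within IDs 19 to 30 it was 0.36. The difference between the sets was -0.91 ± 0.49 and did not pass (edgeR unadjusted p = 0.0768, adjusted p = 0.718). Aplnr, the apelin and Elabela receptor gene, had an estimate of 0.49 ± 0.21 in the haploinsufficient group (edgeR adjusted p = 0.214). Its levels there were 19.7 to 64.5 CPM with a median of 32.3, against 21.2 to 35.9 with a median of 29.7 in the wild type. The 3 haploinsufficient libraries above 60 CPM (replicates 1, 7 and 8) all had a score above 1.5, and the estimate was -0.10 with the score as a term and -0.08 without the 8 libraries of high score.

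**Figure D3:**
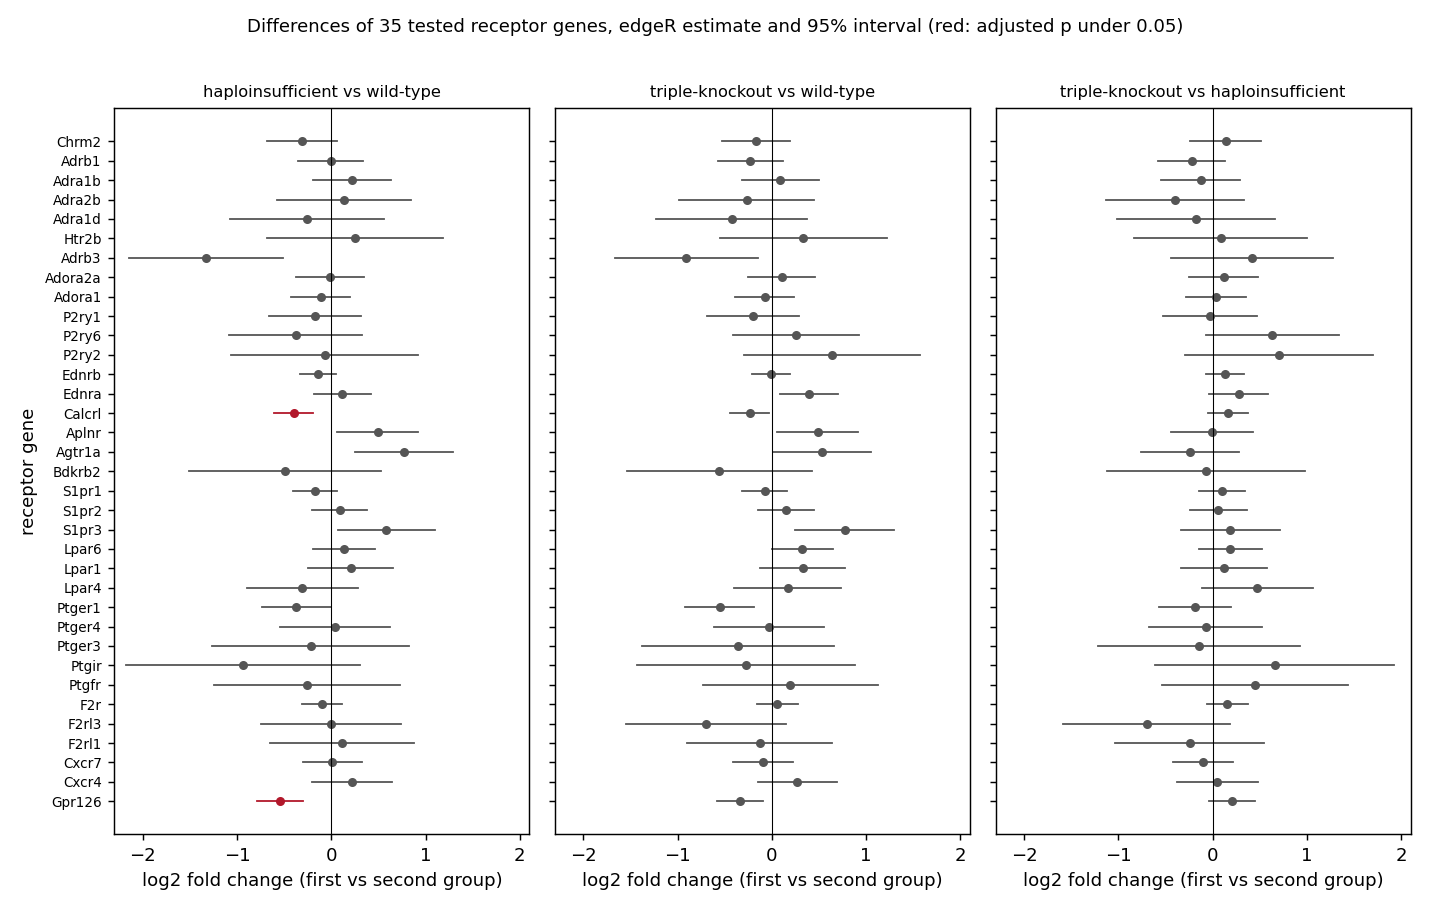
Estimated log2 fold change and 95% interval (edgeR) of the 35 tested receptors in the 3 comparisons, ordered by ligand class and, within it, by wild-type RPKM, with red for an adjusted p under 0.05. Only Calcrl and Gpr126 in the haploinsufficient comparison are red, and intervals are narrowest for abundant receptors.

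For the 5 most abundant receptors, F2r to S1pr2, the libraries of all 3 groups overlapped. F2r was 54.9 ± 8.12 RPKM (40.6 to 64.1, median 55.6) under haploinsufficiency and 61.2 ± 9.37 (43.0 to 71.8, median 63.9) under triple knockout. Ednrb was 32.9 ± 5.14 RPKM (28.1 to 44.3, median 30.7) and 35.8 ± 2.96 (31.3 to 39.0, median 36.8) in these groups. S1pr1 was 27.4 ± 5.44 RPKM (18.0 to 34.2, median 28.6) and 29.1 ± 4.85 (21.7 to 34.4, median 30.9). For Cxcr7 the values were 27.1 ± 9.36 RPKM (15.3 to 41.8, median 26.5) and 25.4 ± 3.07 (20.6 to 29.7, median 25.5), so its spread was widest with haploinsufficiency. S1pr2 was 15.1 ± 4.00 RPKM (8.29 to 21.1, median 15.3) and 16.0 ± 2.58 (13.3 to 20.3, median 15.6). Among the 8 most abundant receptors the farthest 95% bound from no change was 0.784 log2 units in the haploinsufficient group (Gpr126) and 0.701 in the triple knockout (Ednra).

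Between the 2 mutant groups, which by label differ in 1 GRK2 allele, edgeR called 0 of the 35 receptors, beside 0.395% of all genes tested. No receptor had an unadjusted p under 0.05 (0 of 35, beside 15.3% of all genes), and DESeq2 also called 0. The median was 0.087, beside 0.003 for all genes. The smallest p-values belonged to P2ry6 (0.64 ± 0.35, 95% interval -0.07 to 1.34), a receptor gene for uridine nucleotides, Ednra (0.28 ± 0.15), Gpr126 (0.21 ± 0.12), Lpar4 (0.48 ± 0.29), a lysophosphatidic acid receptor gene, and F2rl3 (-0.70 ± 0.43), the gene for a further thrombin receptor, all with edgeR adjusted p of 0.380 or more. P2ry6 was 0.584 to 3.06 CPM in the haploinsufficient and 1.51 to 3.36 CPM in the triple-knockout libraries. Lpar4 was 1.17 to 5.00 and 2.12 to 7.79 CPM, and F2rl3 0.667 to 4.09 and 0.425 to 1.95 CPM. The groups overlapped for each of these. The lowest haploinsufficient values of P2ry6 and Lpar4 and the highest of F2rl3 were all in replicate 2. That library had the lowest depth (1757257 counts, with 3 counts at 1.75 CPM), so these ends rest on few reads. The Lpar4 difference was 1.00 within library IDs 1 to 12, 0.08 within IDs 19 to 30 and 0.05 without the 8 libraries of high score. Between the sets it differed by -0.92 ± 0.58, which did not pass (edgeR unadjusted p = 0.124, adjusted p = 0.579). For Gpr126 the 2 mutant groups thus differed by 0.21 with a 95% interval of -0.04 to 0.45, so its call in one mutant group and not the other is not a shown difference between them. For the 8 most abundant receptors no 95% bound of a triple-knockout minus haploinsufficient difference exceeded 0.586 log2 units, the widest being that of Ednra. The difference between library ID sets was called for 0 of the 35 receptors in each comparison (edgeR), beside 0% of all genes for the haploinsufficient and 0.172% for the triple-knockout comparison with the wild type and 0.0861% between the mutant groups. At an unadjusted p under 0.05 these counts were 2, 1 and 4 of 35, beside 7.34%, 7.7% and 10.9% of all genes.

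Levels of several receptors followed the lung, foregut, liver and thymus score across libraries, in a fit that also held the groups. Of the 35 tested receptors, 8 changed with the score (22.9%, beside 13.6% of all genes tested). The 5 that rose, beside 7.19% of all genes, were S1pr3 with a slope of 0.39 ± 0.04 log2 units per unit of score, Aplnr (0.31 ± 0.04), Ptger3 (0.55 ± 0.15), Lpar1 (0.22 ± 0.06) and S1pr2 (0.17 ± 0.04). The 3 that fell, beside 6.45%, were S1pr1 (-0.15 ± 0.03), Adora1 (-0.16 ± 0.05) and Gpr126 (-0.11 ± 0.04) (edgeR adjusted p from 4.18e-07 for S1pr3 to 0.0310 for Gpr126). Thus the 3 sphingosine 1-phosphate receptor genes did not move together: S1pr2 and S1pr3 rose with the score and S1pr1 fell. Calcrl had a slope of -0.02 ± 0.04, which did not pass (edgeR adjusted p = 0.716). Foxf1 and Cldn6, a mesenchymal and an epithelial marker in this list, were called higher in the haploinsufficient group. Epcam was at 0 in 4 of the 23 libraries and reached 52.6 CPM in haploinsufficient replicate 7. Whether RNA of neighbouring tissue accounts for these slopes was not tested.

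**Figure D4:**
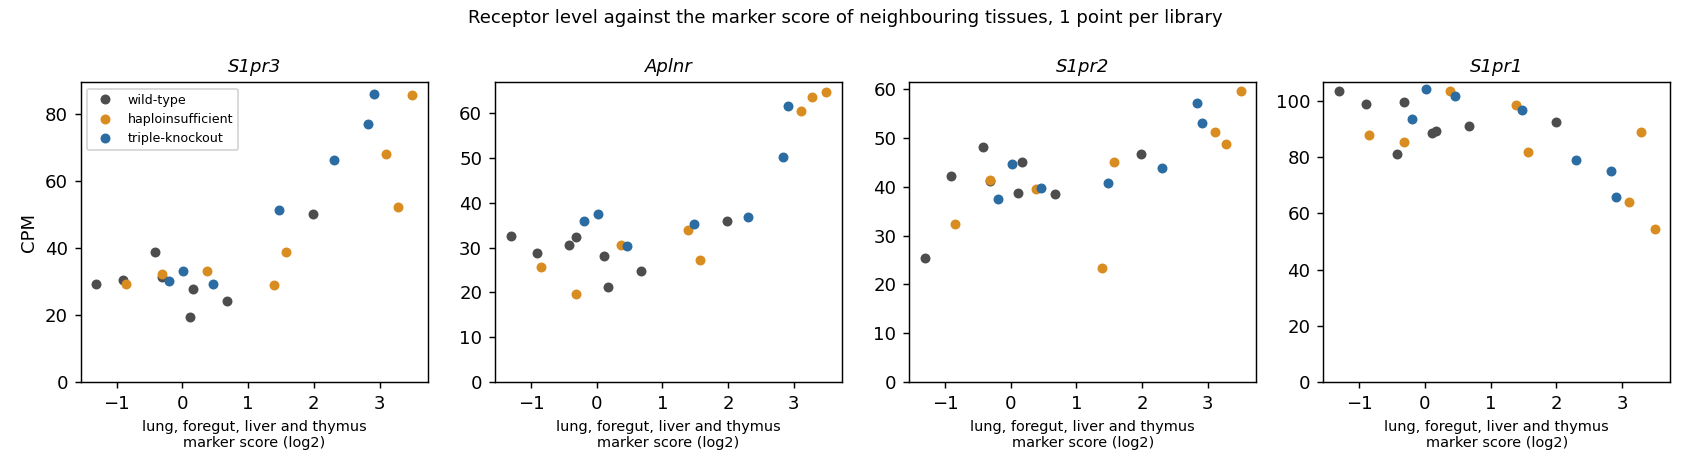
CPM of S1pr3, Aplnr, S1pr2 and S1pr1 (vertical axes) against the marker score of lung, foregut, liver and thymus in log2 units (horizontal axes), 1 point per library coloured by group. Libraries with a score near 3 are among the highest for S1pr3, Aplnr and S1pr2, and most of them are among the lowest for S1pr1.

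The genes that make, break down or present the ligands of these receptors were examined as a list of 48, of which 36 could be tested. Against the wild type, 3 were called in the triple knockout (8.33%, beside 1.18% of all genes) and 3 in the haploinsufficient group (8.33%, beside 2.24%). These are counts for a list chosen with earlier results known. Of them, Entpd1 and Adk were called in both groups. The third was Ache in the triple knockout and Ramp2, described above, in the haploinsufficient group. Both comparisons use the same wild-type libraries, and the share of all genes called in both is not given here. Entpd1, which encodes the ectonucleotidase CD39 that degrades extracellular ATP and ADP, ran from 16.6 to 29.4 CPM (median 23.3) in the wild type, 25.9 to 51.4 (median 34.9) under haploinsufficiency and 33.3 to 49.8 (median 39.3) under triple knockout. The triple-knockout libraries lay wholly above the wild-type ones. It rose by 0.90 ± 0.14 (edgeR adjusted p = 0.000322) and 0.75 ± 0.14 (edgeR adjusted p = 0.00301) in the triple-knockout and haploinsufficient groups. Adk, the adenosine kinase gene, ran from 76.7 to 114 CPM (median 96.4) in the wild type, from 50.4 to 87.0 (median 67.4) under haploinsufficiency and from 46.8 to 79.3 (median 63.4) under triple knockout. It fell by 0.66 ± 0.11 (edgeR adjusted p = 0.00128) in the triple knockout and by 0.52 ± 0.11 (edgeR adjusted p = 0.0104) in the haploinsufficient group. Beside these, 0 of the 5 tested adenosine and nucleotide receptors were called in either comparison.

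Ache, which encodes acetylcholinesterase, was lower in the triple knockout: 7.98 to 14.9 CPM (median 12.5) in the wild type against 3.03 to 9.16 (median 5.37). It fell by 1.13 ± 0.21 (edgeR adjusted p = 0.00264), and its estimate in the haploinsufficient group was -0.60 ± 0.20 (edgeR adjusted p = 0.118). Acetylcholine receptor gene Chrm2 was 12.9 ± 2.53 CPM in the wild type and 11.5 ± 2.83 in the triple knockout. With the score as a term, Entpd1 and Ache in the triple knockout remained called (edgeR adjusted p = 1.66e-05 and 0.0102), while Adk in the haploinsufficient group was not (-0.32, edgeR adjusted p = 0.119). Without the 8 libraries of high score, Ache in the triple knockout was -1.13 (edgeR adjusted p = 0.0607) and Adk in the haploinsufficient group was -0.42 (edgeR adjusted p = 0.0712). Between the mutant groups edgeR called 0 of the 36, and 5 had an unadjusted p under 0.05 (13.9%, beside 15.3% of all genes). The 4 smallest were Procr, the endothelial protein C receptor gene (-0.76 ± 0.25, edgeR adjusted p = 0.155), Ache (-0.53 ± 0.21), Ace, the angiotensin-converting enzyme gene (0.67 ± 0.27), and Dbh, which encodes dopamine beta-hydroxylase (1.42 ± 0.63). Dbh also had an estimate of 2.07 ± 0.62 in the triple knockout against the wild type (edgeR adjusted p = 0.118), with triple-knockout libraries from 0.454 to 15.3 CPM. With the score as a term that estimate was 0.86, and Dbh rose with the score by 0.73 ± 0.18 log2 units per unit (edgeR adjusted p = 0.00577). Without triple-knockout replicate 1, the library at 15.3 CPM, Dbh was 0.86 between the mutant groups and 1.47 against the wild type. That library also had the highest neuron and Schwann cell marker score of its group (2.62). The summed CPM of the 6 neuron and Schwann markers was 12.7 to 24.1 in the wild type, 9.92 to 31.6 under haploinsufficiency and 16.2 to 92.9 under triple knockout, with none at 0 in a whole group, and its part in the Dbh result was not tested.

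**Figure D5:**
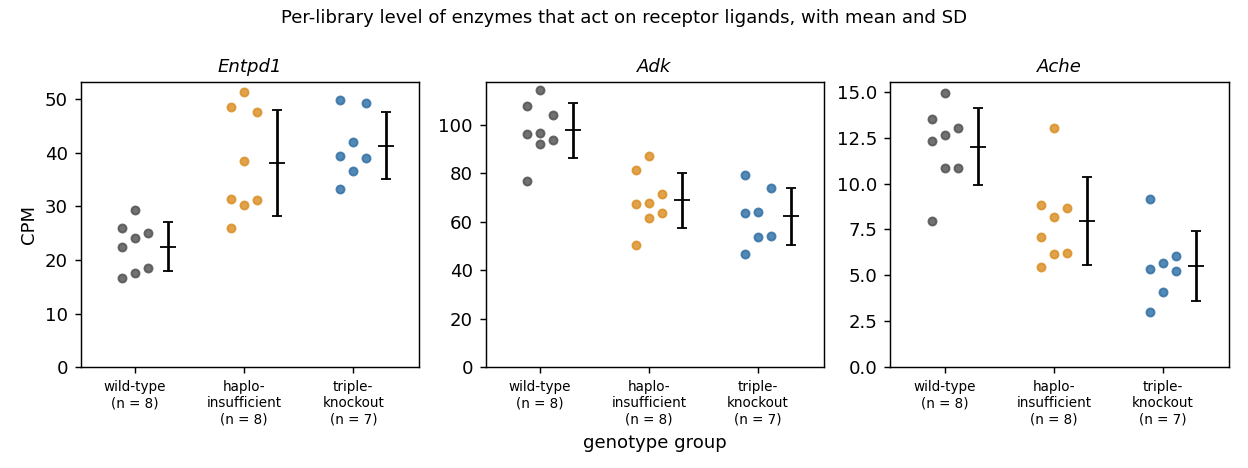
CPM of Entpd1, Adk and Ache in each library by genotype group, with the mean and SD as a bar beside the points. Entpd1 does not overlap between the wild type (16.6 to 29.4 CPM) and the triple knockout (33.3 to 49.8 CPM), whereas Adk and Ache overlap.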

How the data were processed

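RNA of 23 libraries was measured by ribosomal RNA-depleted, single-end, non-strand-specific sequencing, per the labels' protocols. TopHat2 (version 2.0.10) with Bowtie2 placed the reads on mm10, per the submitters' processing notes, and the authors deposited integer read counts per gene made with HTSeq and FPKM values made with Cufflinks (version 2.1). The deposited counts were tested with edgeR (version 4.0.16, R version 4.3.3): the quasi-likelihood model took the genotype group and whether a library's ID was 1 to 12 or 19 to 30 (the ID set), for all 23 libraries together, after TMM scaling and filterByExpr (min.count 10, min.total.count 15). This left 13941 genes, over which two-sided p-values were adjusted by the Benjamini-Hochberg method, with a gene called under 0.05. Single-exon rows and Cre were not tested. CPM and RPKM use TMM-scaled library sizes, RPKM the merged exon length of the deposited annotation. Marker scores are means of log2 CPM (prior count 1). Alternatives used DESeq2 (version 1.42.0), limma (version 3.58.1) on log2(deposited FPKM + 0.1) or + 1, and other terms and libraries. The scripts were tested on simulated data. Genes given with full values were members called in any comparison, the 5 with the smallest p in each, the 8 with the highest wild-type RPKM, and ligand or enzyme genes called or among the 4 smallest p. The members and lists were chosen with earlier results of these data known. No 2 libraries of a group had the same counts within sampling noise (lowest chi-square per degree of freedom 5.196).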

Additional observations from a re-analysis of the deposited data

Results flagged for a closer look

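In 9 of 105 gene and group combinations of the tested receptors, 1 library stood apart from the other libraries of its group by Dixon's test, and chance alone flags about 1 in 20. Triple-knockout replicate 7 accounted for 4 of them: Chrm2 at 5.66 CPM (group median 12.3), Agtr1a at 2.83 (6.65), F2r at 142 (210) and Cxcr4 at 15.9 (9.02). Wild-type replicate 7 was low for S1pr2 at 25.4 CPM (group median 41.6) and Lpar1 at 7.57 (16.8). The other 3 were Adra2b in triple-knockout replicate 3 at 0.688 CPM (group median 3.40), Cxcr4 in haploinsufficient replicate 6 at 3.21 (10.2) and Adrb3 in haploinsufficient replicate 8 at 0 (0.945). Triple-knockout replicate 7 also had the highest lung, foregut, liver and thymus score of its group (2.92), and the part of that in these values was not tested.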

How the results depend on the processing

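The count of 2 receptors called in the haploinsufficient comparison with the wild type became 1 without the ID set term, with only the groups compared and with a replicate block. It became 0 in library IDs 1 to 12 alone, in IDs 19 to 30 alone, with the lung, foregut, liver and thymus score as a term, without the libraries above 1.5 and with the endothelial score as a term, and lay between 1 and 3 when 1 library was left out. It was 3 with DESeq2 and with limma on the deposited FPKM at either pseudocount, Adrb3 being the third. Within IDs 1 to 12 and 19 to 30 the estimates were -0.51 and -0.57 for Gpr126 and -0.42 and -0.38 for Calcrl, from fewer libraries. The ligand and enzyme count of 3 in that comparison became 0 in IDs 1 to 12, and 1 in IDs 19 to 30, without the libraries of high score and with the endothelial score. For the triple knockout against the wild type it was 1 in IDs 19 to 30, in place of 3, and between the mutant groups 1 in IDs 1 to 12, in place of 0. The receptor counts of 0 in the other 2 comparisons stayed 0 under all 37 alternatives each. For none of the alternatives is the share of all genes called given here. A change in these counts is therefore not shown to be particular to the receptors or the ligand and enzyme genes. Aplnr in the haploinsufficient group turned to -0.10 with the score as a term, -0.0795 without the high-score libraries and -0.0751 with the endothelial score, and Gpr126 between the mutant groups to -0.0477 in IDs 1 to 12. The causes were not tested. The labels do not say whether same-numbered libraries share more than a number. Of 22 such pairs, 5 had a correlation of deviations above 0.1 (highest 0.467), and 2 of 23 libraries were closest to one of their own number. These values cannot tell whether a pairing exists. The replicate block left Calcrl at an edgeR adjusted p of 0.0836 and Ramp2 at 0.0731. Per-length levels from the deposited FPKM moved by over 1 SD for Ednrb (43.7) and Adora1 (3.52). Receptors below about 1 RPKM have wide intervals at these depths.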

Other observations

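Agtr2, an angiotensin II receptor gene below the filter and therefore untested, had 14 counts over the wild-type, 20 over the haploinsufficient and 127 over the triple-knockout libraries. Of the triple-knockout libraries, replicate 7 had 5.52 CPM, replicate 1 had 3.71, replicate 2 had 1.68, replicate 3 had 0.963, replicate 6 had 0.434 and the other 2 had 0. The highest wild-type library had 1.03 CPM. Replicates 1 and 7 were also the 2 triple-knockout libraries with a neuron and Schwann cell marker score above 1.5, and had the 2 highest lung, foregut, liver and thymus scores of their group (2.83 and 2.92). The part of either in the Agtr2 values was not tested. The gene was picked out after its values were seen.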
